A study of Homo sapiens with 18 samples.

Results

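The TGF-beta ligands, receptors and feedback genes were 10 of the 58735 genes in the read count table, taken by gene name: the ligands TGFB1, TGFB2 and TGFB3, the receptors TGFBR1, TGFBR2 and TGFBR3, the signal transducer SMAD3, and the feedback regulators SMAD7, PMEPA1 and SKIL. They were measured by RNA sequencing in LNCaP, an established androgen-responsive human prostate cancer cell line. In every group HOXB13, a prostate homeobox transcription factor, was targeted by a hairpin RNA, and the cells also held an inducible rescue construct. The EV state held the empty vector, the WT state unaltered HOXB13, and the 3A state HOXB13 with T8, S31 and T41 replaced by alanine. All cells were deprived of androgen for 48 h (2% charcoal-stripped serum, poor in steroids) and then given either 0.1% ethanol (vehicle) or 10 nM R1881, a synthetic androgen, for 24 h. Each of the 6 groups held 3 libraries. The labels do not say whether the 3 libraries of a group came from separate cultures, so p-values measure only library-to-library spread, part of which may be technical.

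TGF-beta ligands are secreted in a latent form and, once released, bind the type II receptor TGFBR2, which recruits and phosphorylates the type I receptor TGFBR1. TGFBR3, also called betaglycan, presents ligand to this pair. The activated type I receptor phosphorylates SMAD2 and SMAD3, which join SMAD4 and bind DNA. Among the genes they switch on are brakes on the pathway: SMAD7 blocks the type I receptor, SKIL (SnoN) represses SMAD target genes, and PMEPA1 sequesters SMAD2 and SMAD3. PMEPA1 is also a known androgen-induced gene of prostate cells, and LNCaP is known for little type II receptor and a weak response to TGF-beta.

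Libraries held 22812641 to 30611980 counted reads. HOXB13 RNA averaged 533, 536 and 759 CPM (the read count divided by the library's total, scaled for composition) in EV, WT and 3A cells on vehicle. It was not called between WT and EV (log2 difference 0.01, 95% interval -0.22 to 0.24, edgeR adjusted p = 0.999) and was higher in 3A than in EV (0.51 ± 0.11, edgeR adjusted p = 0.00482). On vehicle HOXB13 RNA of 3A cells also exceeded that of WT cells by 0.50 (edgeR adjusted p = 0.00807). With R1881 this gap was 0.55 (edgeR adjusted p = 0.00595). R1881 lowered HOXB13 RNA to 416, 347 and 507 CPM in EV, WT and 3A cells (edgeR adjusted p = 0.0202, 0.000221 and 0.000361). Against EV with R1881, neither WT (-0.26, edgeR adjusted p = 0.143) nor 3A (0.28, edgeR adjusted p = 0.119) was called. The part of HOXB13 level in the differences below was not tested. A higher HOXB13 RNA level was thus not seen in the WT rescue, cells without the hairpin were not analysed here, and the names EV, WT and 3A below are those of the labels. R1881 raised the androgen-induced FKBP5 from 56.1, 56.2 and 75.3 CPM to 1770, 1140 and 1810 CPM in EV, WT and 3A cells. All 10 luminal prostate markers were measured above the low-count filter in these libraries, against 4 of 10 fibroblast and smooth muscle markers and 2 of 11 immune, endothelial and basal markers, of which CD3E and TP63 were at 0 in every library.

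On a scale per transcript length (the deposited FPKM, fragments per kilobase scaled to library size), PMEPA1 was the most abundant of the 10 genes, with a mean of 41.7 over the 18 libraries. TGFBR1 followed at 4.92 (range 3.99 to 5.77), above every library's value for the genes that come after it. SKIL (mean 2.59, range 2.00 to 3.27), TGFBR3 (2.23, 1.27 to 3.19) and SMAD7 (2.10, 0.824 to 3.17) had overlapping ranges. SMAD3 averaged 1.21 FPKM (0.682 to 1.63), within reach of the lower SMAD7 libraries. The ligands and the type II receptor were far lower, at 0.145 for TGFB3, 0.0612 for TGFBR2, 0.0485 for TGFB1 and 0.016 for TGFB2, and the ranges of TGFB3 (0.0211 to 0.491), TGFBR2 (0.00885 to 0.15), TGFB1 (0 to 0.133) and TGFB2 (0 to 0.0485) overlapped. The receptor pair was thus unequal in RNA: TGFBR1 had 689 to 1107 reads per library and TGFBR2 had 1 to 17.

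**Figure D1:**
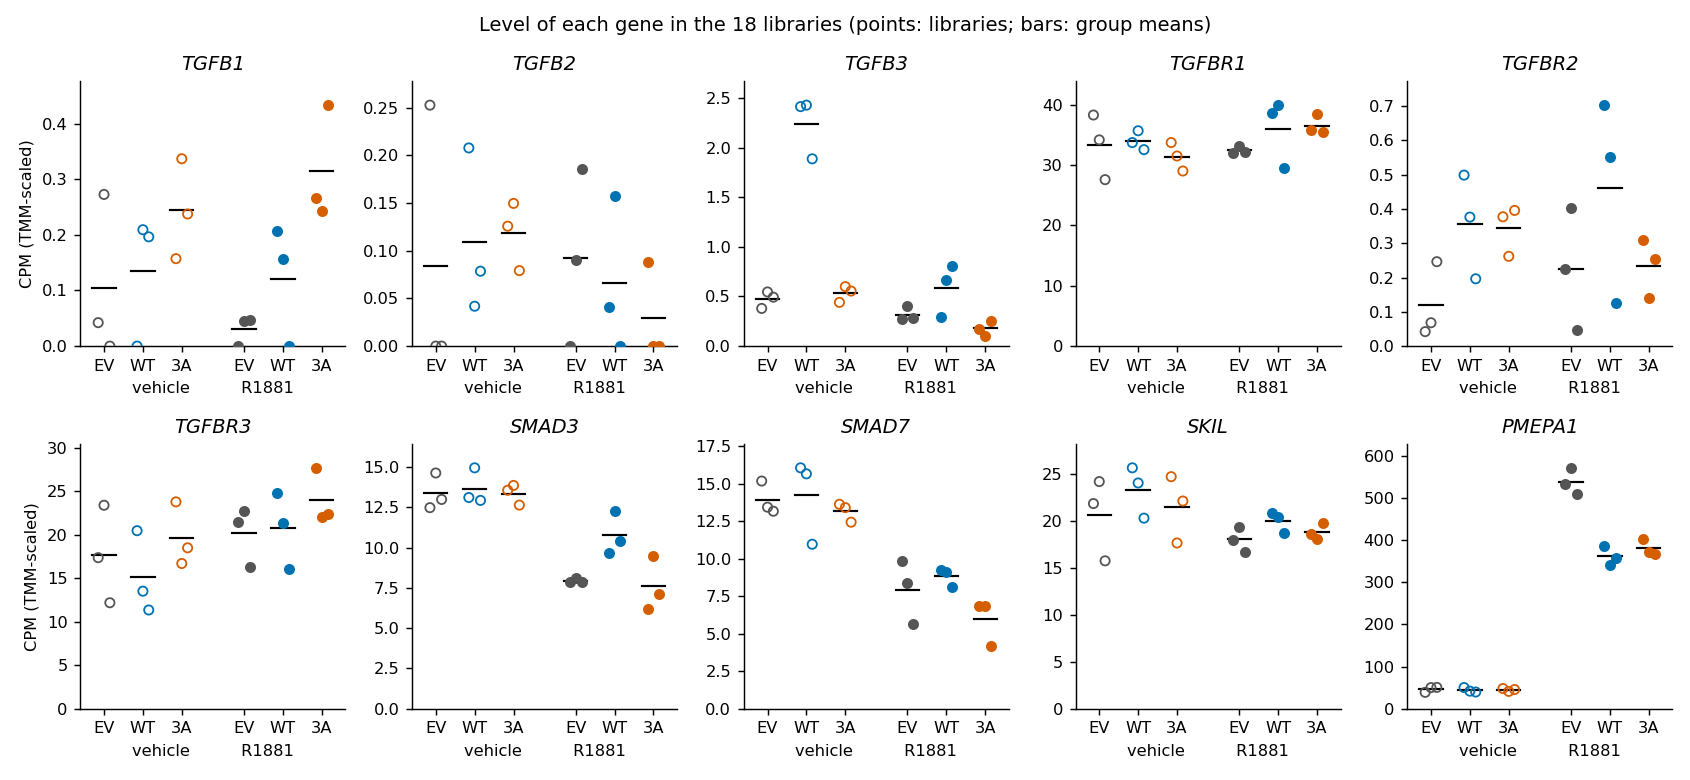
Level of each of the 10 genes in CPM (1 panel a gene, each with its own axis from 0) in the 18 libraries, with open points for vehicle, filled points for R1881 and a bar at each group's mean. The 3 WT vehicle libraries of TGFB3 sit at 1.89 to 2.43 CPM, above all other TGFB3 points, and the 3 EV R1881 libraries of PMEPA1 at 509 to 571 CPM.

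Differences were tested on the counts with edgeR's quasi-likelihood test over 17162 genes, and a gene was called at an adjusted p under 0.05. Of the 10 genes 8 passed the filter on low counts. TGFB1 had 0 to 12 reads per library (75 in all, 0 in 4 libraries) and TGFB2 had 0 to 6 (37 in all, 0 in 6 libraries), and neither was tested. TGFB1 reads summed to 9, 10 and 20 over the EV, WT and 3A groups on vehicle and to 2, 9 and 25 with R1881, and 6.64% of its exon length is shared with HNRNPUL1 on the opposite strand, a gene at 130 to 157 CPM. A count of 0 allows up to 3 reads per library at this depth, counting error only. TGFB3 and TGFBR2 passed with 10 and 4 libraries over the cutoff, where 3 were needed. The 10 of TGFB3 included all 3A vehicle libraries (14, 16 and 14 reads), so its place did not rest on WT vehicle, its highest group. The place of TGFBR2 among the tested genes depended on the groups where it was higher. In these bulk samples fewer cells expressing a gene and less RNA per cell cannot be told apart.

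The 4 genes that were called in any comparison, TGFB3, SMAD3, SMAD7 and PMEPA1, are printed here with the 250 bases before 1 of their RefSeq starts (GRCh38.p14), to give the sequence next to which these changes were measured. For each gene the window shown is that of the lowest-numbered RefSeq start with no annotated exon base. It need not be the start used in LNCaP, and for SMAD3, SMAD7 and PMEPA1 it lies within the gene's annotated span. The windows are TGFB3 at chr14:75983012-75983261 (minus strand), SMAD3 at chr15:67065352-67065601 (plus strand), SMAD7 at chr18:48949334-48949583 (minus strand) and PMEPA1 at chr20:57690687-57690936 (minus strand), each written on the gene's strand from 5′ to 3′. Capitals mark matches, on either strand, to the SMAD core CAGAC and to the androgen receptor hexamer AGAACA.
TGFB3: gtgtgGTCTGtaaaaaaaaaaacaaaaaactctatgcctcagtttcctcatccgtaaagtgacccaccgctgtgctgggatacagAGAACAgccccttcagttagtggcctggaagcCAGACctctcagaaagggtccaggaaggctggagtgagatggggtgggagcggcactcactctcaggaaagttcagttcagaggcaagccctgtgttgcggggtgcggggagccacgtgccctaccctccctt
SMAD3: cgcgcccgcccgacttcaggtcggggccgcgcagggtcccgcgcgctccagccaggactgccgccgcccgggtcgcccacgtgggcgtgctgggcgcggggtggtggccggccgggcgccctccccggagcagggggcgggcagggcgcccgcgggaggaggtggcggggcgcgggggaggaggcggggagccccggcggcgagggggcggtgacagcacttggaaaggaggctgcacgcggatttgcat
SMAD7: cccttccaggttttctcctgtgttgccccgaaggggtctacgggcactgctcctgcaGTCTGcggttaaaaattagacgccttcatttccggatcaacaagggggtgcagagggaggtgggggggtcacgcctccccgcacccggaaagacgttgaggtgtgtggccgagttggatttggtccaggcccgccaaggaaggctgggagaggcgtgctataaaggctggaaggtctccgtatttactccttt
PMEPA1: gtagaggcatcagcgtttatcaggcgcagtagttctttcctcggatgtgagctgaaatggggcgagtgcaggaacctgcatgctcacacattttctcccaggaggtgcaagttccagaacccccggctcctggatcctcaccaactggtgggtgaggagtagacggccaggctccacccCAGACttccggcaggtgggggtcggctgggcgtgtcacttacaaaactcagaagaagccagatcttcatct
The TGFB3 window held 2 matches to CAGAC and 1 to AGAACA, the SMAD7 and PMEPA1 windows 1 match to CAGAC each, and the SMAD3 window none. Other exon-free windows of the same genes differed: the second TGFB3 window and the third SMAD7 window had no match, and the fifth SMAD3 window had 3 matches to the SMAD core. CAGAC occurs in 38% and AGAACA in 12.4% of the 34943 RefSeq windows of the same length. The palindromic SMAD box GTCTAGAC (0.183% of windows), the full androgen element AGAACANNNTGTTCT, which contains the hexamer (0.00286%), and the HOXB13 motif CAATAAA (3.67%) were searched on both strands and had no match in these 4 windows. A match is a description of the letters, and no binding was measured here.

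R1881 raised PMEPA1 about 8- to 12-fold in all 3 rescue states and lowered SMAD7 in all 3. SMAD3 fell in EV and 3A cells, and TGFB3 fell in WT and 3A cells. None of the 3 receptors and not SKIL was called. The members called were 3 of 8 in EV, 3 of 8 in WT and 4 of 8 in 3A cells, beside a background of 25.3%, 20.1% and 24.5% of all tested genes. Their groups did not overlap for 3, 4 and 5 of 8 members in the same 3 comparisons, beside 42.2%, 32.6% and 36.0% of all tested genes.

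**Figure D2:**
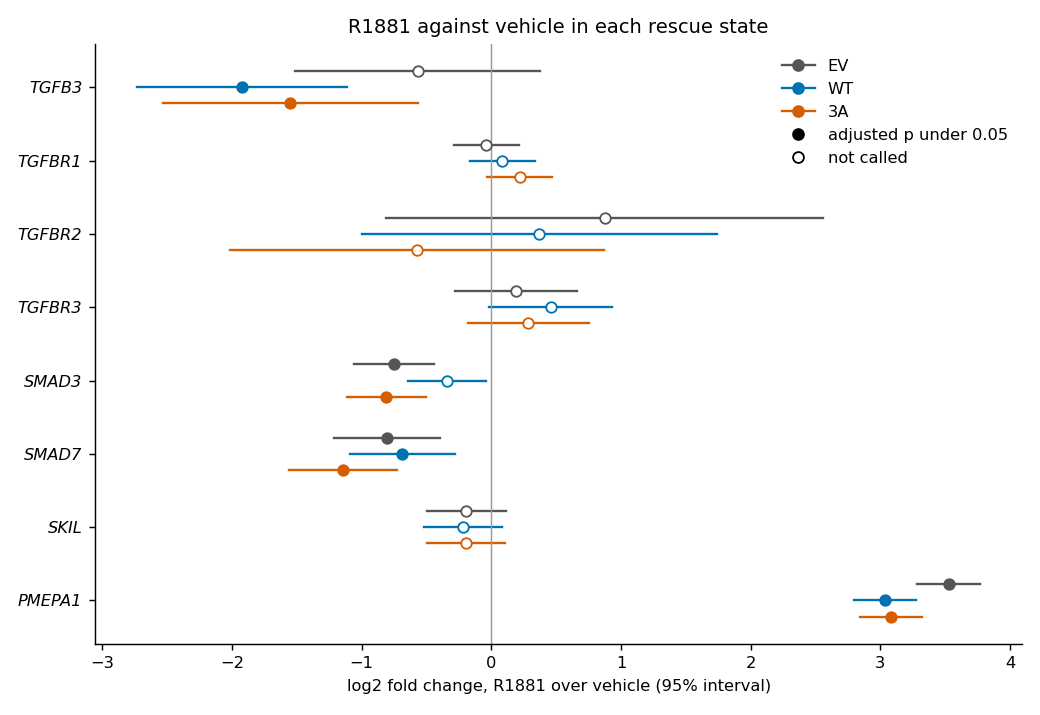
Log2 difference between R1881 and vehicle for the 8 tested genes in EV, WT and 3A cells, with 95% intervals, filled where the edgeR adjusted p was under 0.05. PMEPA1 lies at 3.04 to 3.53, SMAD7 at -1.14 to -0.69, and the receptors and SKIL have intervals that include 0.

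PMEPA1 (ENSG00000124225, chr20:57648392-57711536, minus strand) encodes a membrane protein that binds SMAD2 and SMAD3 and ubiquitin ligases of the NEDD4 family. In EV cells it measured 38.9, 50.2 and 50.7 CPM on vehicle and 532, 571 and 509 CPM with R1881. In WT cells it went from 50.4, 41.8 and 39.8 to 387, 341 and 357 CPM, and in 3A cells from 48.0, 41.2 and 45.6 to 402, 371 and 367 CPM. Every R1881 library was above every vehicle library, and the EV libraries with R1881 were above all other R1881 libraries. The change was 11.5-fold in EV (log2 3.53 ± 0.12 SE, edgeR adjusted p = 5.62e-15). It was 8.22-fold in WT (log2 3.04 ± 0.12, edgeR adjusted p = 5.35e-14) and in 3A cells it was 8.45-fold (log2 3.08 ± 0.11, edgeR adjusted p = 3.03e-14).

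The higher androgen-treated level of EV cells passed the test. With R1881, PMEPA1 was lower in WT than in EV (log2 difference -0.57 ± 0.11, edgeR adjusted p = 0.00185) and lower in 3A than in EV (-0.50 ± 0.11, edgeR adjusted p = 0.00424). These were the only members called, 1 of 8 in each comparison, beside a background of 8.70% and 8.45%. WT and 3A cells differed from each other by 0.07 (95% interval -0.15 to 0.29). On vehicle the 3 states were close, with WT minus EV at -0.08 (-0.31 to 0.14) and 3A minus EV at -0.05 (-0.28 to 0.17). The difference between the R1881 responses themselves was -0.49 for WT minus EV (edgeR adjusted p = 0.256) and -0.45 for 3A minus EV (edgeR adjusted p = 0.745), and was not called.

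Other androgen-responsive genes were also lower in WT cells with R1881. FKBP5 differed from EV by -0.63 ± 0.11 (edgeR adjusted p = 0.00115) and KLK3 by -0.75 ± 0.21 (edgeR adjusted p = 0.0276), and the summed level of the 10 luminal markers was 8860 to 9720 CPM in WT against 12200 to 13100 CPM in EV cells. In 3A cells that sum was 11000 to 11500 CPM, and neither FKBP5 (0.03 ± 0.11, edgeR adjusted p = 0.906) nor KLK3 (-0.38 ± 0.21, edgeR adjusted p = 0.274) was called against EV. The part of a general androgen response in the PMEPA1 difference was not tested. The 343 exon bases that PMEPA1 shares with the antisense gene NKILA are 6.10% of its exon length, and NKILA averaged 4.25 CPM on vehicle and 23.3 CPM with R1881 in EV cells, so a small part of the reads cannot be told apart between them without the strand setting.

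SMAD7 (ENSG00000101665, chr18:48919853-48952052, minus strand), the inhibitory SMAD that blocks the type I receptor, fell with R1881. In EV cells it measured 15.2, 13.4 and 13.2 CPM on vehicle and 9.84, 8.36 and 5.64 CPM with R1881. In WT cells it went from 16.1, 15.7 and 10.96 to 9.23, 9.12 and 8.12 CPM, and in 3A cells from 13.6, 13.4 and 12.4 to 6.86, 6.84 and 4.19 CPM. Vehicle and R1881 libraries did not overlap in any state. The log2 change in EV cells was -0.81 ± 0.20 (edgeR adjusted p = 0.00392). WT cells changed by -0.69 ± 0.20 (edgeR adjusted p = 0.0146), while 3A cells changed by -1.14 ± 0.20 (edgeR adjusted p = 0.000152). The WT call was lost without WT vehicle replicate 1 (-0.59, edgeR adjusted p = 0.0581), WT vehicle replicate 2 (-0.60, edgeR adjusted p = 0.0691) or WT R1881 replicate 3 (-0.63, edgeR adjusted p = 0.0564), and the adjusted p ran from 0.00121 to 0.0691 over all alternatives. The larger drop in 3A than in WT cells was a difference of -0.46 (95% interval -1.03 to 0.12, edgeR adjusted p = 0.619). SMAD7 and PMEPA1, both feedback genes of the pathway, thus moved in opposite directions under R1881.

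SMAD3 (ENSG00000166949, chr15:67063763-67195195, plus strand), which carries the receptor signal to DNA, fell in EV and 3A cells. It measured 12.5, 14.6 and 12.98 CPM in EV cells on vehicle and 7.85, 8.09 and 7.87 CPM with R1881. In 3A cells the values were 13.6, 13.9 and 12.6 on vehicle and 6.20, 9.45 and 7.11 CPM with R1881. In WT cells they were 13.1, 14.9 and 12.9 on vehicle and 9.68, 12.3 and 10.4 CPM with R1881. In each state the treated libraries lay below the vehicle libraries. The log2 change was -0.75 ± 0.15 in EV cells (edgeR adjusted p = 0.000556), while 3A cells gave -0.81 ± 0.15 (edgeR adjusted p = 0.000231). WT cells, at -0.34 ± 0.14 (edgeR adjusted p = 0.11), were not called. That one state passed and another did not is no test of a difference: 3A minus WT was -0.47 (edgeR adjusted p = 0.479) and WT minus EV 0.41 (edgeR adjusted p = 0.525).

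With R1881 the SMAD3 level of WT cells lay above every EV and 3A library. The log2 difference was 0.44 ± 0.15 for WT minus EV (edgeR adjusted p = 0.0674) and -0.50 ± 0.15 for 3A minus WT (edgeR adjusted p = 0.068), and neither was called. DESeq2 placed both under the threshold, at adjusted p = 0.0358 and 0.0297, while over all alternatives the adjusted p ran from 0.0218 to 0.319 and from 0.0152 to 0.297. Without 3A R1881 replicate 2 the second difference reached -0.70 (edgeR adjusted p = 0.0161).

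TGFB3 (ENSG00000119699, chr14:75958099-75982991, minus strand), the ligand RNA with the highest mean over the 18 libraries, was the one member called between rescue states on vehicle. WT cells had 58, 58 and 48 reads (2.41, 2.43 and 1.89 CPM), against 9, 16 and 14 reads in EV (0.379, 0.545 and 0.493 CPM) and 14, 16 and 14 reads in 3A cells (0.440, 0.599 and 0.554 CPM). The lowest WT library was thus well above the highest EV or 3A library. The difference was 4.68-fold for WT over EV (log2 2.23 ± 0.39 SE, edgeR adjusted p = 0.00455), and 3A lay below WT by -2.07 ± 0.39 (edgeR adjusted p = 0.00209). TGFB3 was 1 of 8 members called in each, beside a background of 0.769% and 5.63% of tested genes. 3A and EV differed by 0.15 (95% interval -0.71 to 1.02).

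With R1881, TGFB3 reads fell to 7, 17 and 19 in WT and to 4, 3 and 7 in 3A cells, and were 6, 9 and 6 in EV cells. R1881 and vehicle libraries did not overlap in WT and 3A cells, and overlapped in EV cells. The log2 change was -1.92 ± 0.39 in WT cells (edgeR adjusted p = 0.000945). It was -1.55 ± 0.47 for 3A cells (edgeR adjusted p = 0.0192), while EV cells gave -0.57 ± 0.45 (edgeR adjusted p = 0.403). The 3A call was lost without 3A vehicle replicate 2 (-1.46, edgeR adjusted p = 0.0576) or 3A R1881 replicate 2 (-1.26, edgeR adjusted p = 0.0865), with no filter on low counts (edgeR adjusted p = 0.0622) and in a fit of the compared groups alone (edgeR adjusted p = 0.0784). Over all alternatives its adjusted p ran from 0.0139 to 0.0865. The change in WT minus that in EV was -1.35 (edgeR adjusted p = 0.466) and was not called.

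Under R1881, 3A lay below WT for TGFB3 by -1.70 ± 0.47 (edgeR adjusted p = 0.0529), for SMAD3 as above and for SMAD7 by -0.57 ± 0.20 (edgeR adjusted p = 0.143). None of the 8 members was called in that comparison by edgeR, beside a background of 3.18%. DESeq2 called 2 of the 8 members and 893 genes in all. An unadjusted edgeR p under 0.05 was reached by 3 of 8, and by 15.7% of all tested genes. The TGFB3 difference was called by edgeR without WT R1881 replicate 1 (-2.02, edgeR adjusted p = 0.0229). The adjusted p ran from 0.0229 to 0.201 over the 11 alternatives that gave 1 for TGFB3. On vehicle 3A against EV likewise gave 0 of 8 by edgeR and by DESeq2, beside an edgeR background of 7.25%. It gave 0 of 8 at an unadjusted p under 0.05, which 21.0% of all tested genes reached.

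On vehicle VWF, known as an endothelial gene, was higher in WT than in EV cells by 1.31 (edgeR adjusted p = 0.000397), and it made up nearly all of a summed level of the 11 immune, endothelial and basal markers of 11.1 to 12.6 CPM in WT against 3.61 to 5.88 CPM in EV cells. In 3A cells that sum was 11.2 to 12.5 CPM while TGFB3 was at the EV level. The other endothelial markers were near 0, with 0 to 2 reads per library for PECAM1 and 0 to 3 for CDH5. The part of VWF-expressing cells in the TGFB3 result was not tested. The fibroblast and smooth muscle markers summed to 22 to 26.5 CPM in WT and 21.7 to 25.1 CPM in EV cells on vehicle, and most of this was COL1A1.

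**Figure D3:**
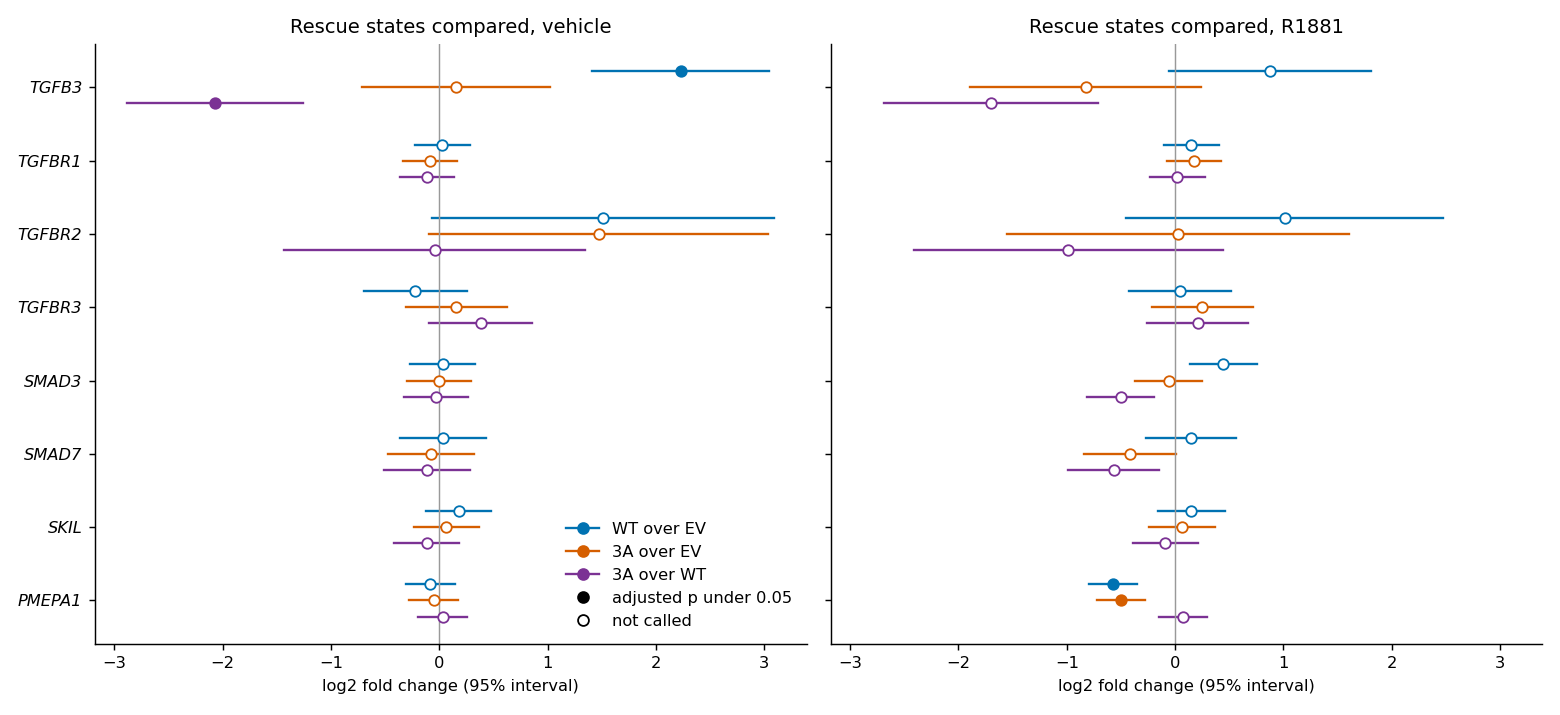
Log2 difference between rescue states for the 8 tested genes, on vehicle (left) and with R1881 (right), with 95% intervals and filled points where the edgeR adjusted p was under 0.05. On vehicle the 2 filled points are TGFB3, at 2.23 for WT over EV and -2.07 for 3A over WT, and with R1881 they are PMEPA1, at -0.57 for WT over EV and -0.50 for 3A over EV.

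The receptors and SKIL were called in none of the 9 comparisons between groups. TGFBR1 (chr9:99104038-99154192, plus strand), the type I receptor kinase, measured 27.6 to 39.9 CPM over all libraries, with R1881 changes of -0.04 in EV (95% interval -0.29 to 0.21), 0.08 in WT (-0.17 to 0.33) and 0.22 in 3A cells (-0.03 to 0.47). TGFBR3 (chr1:91680343-91906335, minus strand) measured 11.4 to 27.7 CPM, with changes of 0.19 (-0.28 to 0.66), 0.46 (-0.02 to 0.93) and 0.28 (-0.18 to 0.75) in the same order. The TGFBR3 change in WT cells was called without WT vehicle replicate 1 (0.74, edgeR adjusted p = 0.0286) and with no low-count filter (edgeR adjusted p = 0.0179), with an adjusted p of 0.0179 to 0.501 over all alternatives. SKIL (chr3:170357678-170396835, plus strand) measured 15.7 to 25.6 CPM, with changes of -0.19 (-0.50 to 0.11), -0.22 (-0.52 to 0.08) and -0.19 (-0.50 to 0.11).

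TGFBR2 (chr3:30606502-30694142, plus strand), the ligand-binding type II receptor, was too low for a narrow interval. Its reads were 1, 2 and 7 in EV, 12, 9 and 5 in WT and 12, 7 and 10 in 3A cells on vehicle, and 5, 9 and 1, then 17, 14 and 3, then 7, 4 and 7 with R1881. On vehicle the 3A libraries did not overlap the EV libraries, and the log2 difference was 1.47 (95% interval -0.09 to 3.03, edgeR adjusted p = 0.271). WT minus EV was 1.51 (-0.06 to 3.09, edgeR adjusted p = 0.717). No difference was detectable at this depth.

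The rest of the pathway was described with 5 lists of 69 genes, of which 52 were tested. R1881 changed 23 (15 higher, 8 lower), 22 (15 and 7) and 24 (14 and 10) of the 52 in EV, WT and 3A cells, with a median log2 change of -0.09, 0.02 and 0.03 beside -0.02, -0.03 and -0.01 over all tested genes. Of all tested genes 25.3%, 20.1% and 24.5% were called in these comparisons, which is the background for each list that follows. In all 3 states 12 genes were called higher and 4 lower, the 4 being BAMBI, ID3, INHBB and SMAD1. The share of all tested genes called the same way in all 3 states was not computed, so these counts have no background here. With any 1 library of the compared groups left out, 19 of the 23, 19 of the 22 and 18 of the 24 kept their call in every such fit.

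Among the 13 SMAD proteins and their regulators, all tested, 6 were called in EV (5 higher), 9 in WT (7 higher) and 7 in 3A cells (5 higher), beside the 25.3%, 20.1% and 24.5% of all tested genes. The ubiquitin ligases NEDD4L, WWP1 and SMURF1, which mark receptors and SMADs for degradation, and the SMAD phosphatase PPM1A led the list. NEDD4L rose from 138 to 273 CPM in EV cells (log2 0.98 ± 0.09, edgeR adjusted p = 3.08e-08), by 0.96 in WT and by 0.92 in 3A cells. WWP1 rose by 0.79, 0.68 and 1.11, and SMURF1 by 0.65, 0.70 and 0.69. PPM1A rose by 0.87, 0.83 and 1.26. In EV, WT and 3A cells alike these 4 negative regulators rose while SMAD7 fell. The decoy receptor BAMBI, of another list, also fell in all 3 states (-1.55, -1.51 and -1.31). Among the 13 SMAD proteins and regulators, those called lower were TGIF1 in EV (-0.45) and WT cells (-0.38), USP15 in WT (-0.41) and 3A cells (-0.32), and TGIF2 in 3A cells (-0.37). The USP15 and TGIF2 calls were lost in some fits that left out 1 library.

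BAMBI, a decoy receptor that lacks a kinase domain, was the one called gene of the 7 tested co-receptors and receptor regulators. It fell from 73.0 to 25.0 CPM in EV (log2 -1.55 ± 0.16, edgeR adjusted p = 1.48e-07), by 1.51 in WT and by 1.31 in 3A cells on the log2 scale. Of the 8 tested genes of latency and activation, ITGAV, an integrin subunit that frees latent ligand, rose in all 3 states, from 104 to 209 CPM in EV (0.9995 ± 0.17, edgeR adjusted p = 0.000169). The latency binding proteins LTBP1 and LTBP2 were called lower in 3A cells, at -0.81 (edgeR adjusted p = 0.0456) and -0.70 (edgeR adjusted p = 0.0159). LTBP1 kept its call in 1 and LTBP2 in 2 of the 6 fits that left out 1 library.

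Of 16 known response genes of TGF-beta 11 were tested, and CCN2, which encodes a matricellular protein, was among the untested, with 0 reads in 17 of 18 libraries. SNAI2, the transcription factor SLUG, rose from 0.487 to 34.3 CPM in EV (log2 6.14 ± 0.29, edgeR adjusted p = 8.09e-13), by 6.19 in WT and by 5.84 in 3A cells. BHLHE40, a circadian repressor, rose by 1.13, 1.02 and 1.56. ID2 and the cell cycle inhibitor CDKN2B rose in EV (1.57 and 1.64) and 3A cells (1.46 and 2.03). ID3, an inhibitor of differentiation, fell by 2.49 in WT cells (edgeR adjusted p = 0.000582), and CDKN1A fell by 0.63 there. In total 8, 4 and 7 of the 11 were called in EV, WT and 3A cells, beside the 25.3%, 20.1% and 24.5% of all tested genes, with 5, 2 and 4 of them higher, so the list did not move one way.

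The activin and BMP branch, which shares SMAD4 with TGF-beta, had 7, 7 and 6 of 13 tested genes called, beside the 25.3%, 20.1% and 24.5% of all tested genes. The receptors BMPR1B and BMPR1A rose. BMPR1B went from 27.1 to 86.1 CPM in EV (log2 1.67 ± 0.15, edgeR adjusted p = 2.72e-08) and rose by 1.76 in both WT and 3A cells, and BMPR1A rose by 1.07, 0.85 and 0.91. SMAD1, the transducer of BMP receptors, fell by 1.32, 0.86 and 1.21, and the activin subunit gene INHBB by 1.29, 0.86 and 2.02 in EV, WT and 3A cells.

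**Figure D4:**
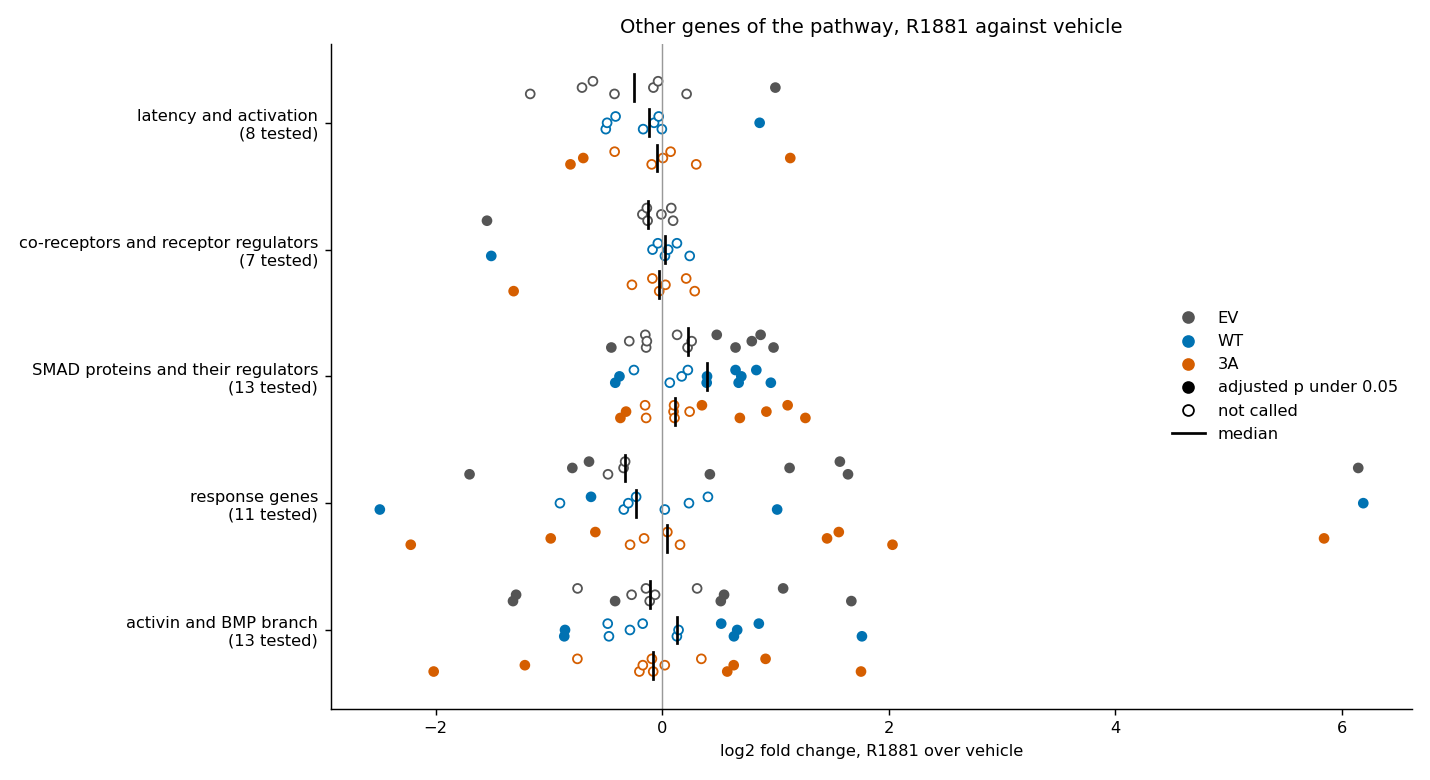
Log2 difference between R1881 and vehicle for the tested genes of the 5 pathway lists in EV, WT and 3A cells, 1 point a gene, filled where the edgeR adjusted p was under 0.05, with a black line at each list's median. The response gene SNAI2 lies furthest to the right at 5.84 to 6.19, and BAMBI is the filled co-receptor point at -1.55 to -1.31.

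Between rescue states the pathway genes called were 0, 2 and 3 of 52 on vehicle (WT versus EV, 3A versus EV, 3A versus WT), beside 0.769%, 7.25% and 5.63% of all tested genes. With R1881 they were 4, 5 and 4 of 52, beside 8.70%, 8.45% and 3.18%. For WT against EV on vehicle 7 of the 52 had an unadjusted p under 0.05 (7.37% of all tested genes did). DESeq2 called 1 of the 52 there, and 230 genes in all. The inhibitory SMAD6 was higher in 3A than in EV cells on vehicle (10.7 to 16.7 CPM, log2 0.65 ± 0.12, edgeR adjusted p = 0.000927), also under R1881 (0.63 ± 0.12, edgeR adjusted p = 0.0016), and in WT than in EV cells with R1881 (0.59 ± 0.12, edgeR adjusted p = 0.00385). On vehicle SMAD6 was higher in 3A than in WT cells as well (0.59 ± 0.12, edgeR adjusted p = 0.00359). GDF15, a stress-induced cytokine, was lower in 3A than in EV cells on vehicle (-0.997 ± 0.22, edgeR adjusted p = 0.00487), and INHBB was lower in 3A than in WT cells with R1881 (-1.05 ± 0.19, edgeR adjusted p = 0.00232). CDKN2B was lower in 3A than in WT cells on vehicle (-1.29 ± 0.28, edgeR adjusted p = 0.00765), and JUNB lower in WT than in EV cells with R1881 (-0.73 ± 0.13, edgeR adjusted p = 0.00159). For 3A against EV with R1881, where same-numbered libraries deviated together, a replicate block raised the pathway count from 5 to 8 and the count over all genes from 1451 to 2409, with PMEPA1 the one member called in either fit.

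FURIN, the protease that cleaves the ligand precursors, was lower in 3A than in WT cells on vehicle (-0.51 ± 0.11, edgeR adjusted p = 0.00917), and this call was lost without WT vehicle replicate 2 (-0.44, edgeR adjusted p = 0.0581). It was also lower in 3A than in EV cells with R1881 (-0.46 ± 0.11, edgeR adjusted p = 0.0124), a call lost without 3A R1881 replicate 3 (-0.35, edgeR adjusted p = 0.0776). With any 1 library of the compared groups left out, 2 of the 2, 2 of the 3, 2 of the 4, 2 of the 5 and 1 of the 4 calls between states were kept in every such fit, in turn for 3A versus EV and 3A versus WT on vehicle, then WT versus EV, 3A versus EV and 3A versus WT with R1881.

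The difference in R1881 response between states was called for 0 of 8 members by edgeR in each of the 3 contrasts. For WT minus EV 2 of 8 members had an unadjusted p under 0.05, and 1 of 8 did for 3A minus EV and for 3A minus WT. At that unadjusted threshold stood 9.77%, 6.25% and 9.57% of all tested genes, while 0.198%, 0.0117% and 0.0583% were called after adjustment. DESeq2 likewise called 0 of 8 in each, and 139, 7 and 83 genes in all. Of the 52 pathway genes edgeR called 0 for each contrast, with 7, 3 and 9 at an unadjusted p under 0.05, and DESeq2 called 0, 0 and 2.

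The protein-coding genes whose log2 CPM followed the 3 most often called members over the 18 libraries were found by Pearson correlation, as a description that mostly reflects the shared R1881 groups. PMEPA1 was followed by SLC45A3 (r = 0.997), TMEM121B (0.993) and CHRNA2 (0.992). SMAD7 was followed by DAB2IP (0.949), GIMAP2 (0.944) and CAMK1D (0.942). TGFB3 was followed less closely, by VSTM2L (0.875), COBLL1 (0.865) and PARP8 (0.864).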

How the data were processed

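RNA was sequenced as paired-end reads from 18 libraries. Reads were aligned to hg38 with HISAT2 2.0.5 and counted with featureCounts 1.5.0-p3, per the submitters' processing notes; not given in the sources used here were the gene annotation, strandedness and multiple mapping. The authors deposited raw counts per gene and, in a second table, FPKM values. Counts were used for every test and FPKM only to compare levels between genes. Gene positions and lengths in the files equal those of GENCODE v29 for all 10 members. Groups and replicate numbers came from the labels.

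Genes were kept by edgeR's filterByExpr (minimum count 10, minimum total 15), leaving 17162 of 58735. Counts were scaled by TMM, fitted with 1 coefficient per group over all 18 libraries (edgeR 4.0.16, limma 3.58.1, R 4.3.3) and tested with the quasi-likelihood test, with Benjamini-Hochberg adjustment over all genes tested and 95% intervals. The fit was tested on simulated data. Alternatives were DESeq2 1.42.0, RLE scaling, no filter, a filter of 1 CPM in 3 libraries, the compared groups alone, a replicate block, and each library left out. The totals per library limit precision most for TGFB1, TGFB2, TGFB3 and TGFBR2. Pairs of replicate libraries differed by 8.55 to 48.7 chi-square units per degree of freedom, so none was a repeat deposit.

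All 10 members are given. Of each pathway list, up to 4 called genes with the smallest adjusted p were named, and 3 neighbours of each of the 3 most often called members. The 4 genes that fell in all states, TGIF1, TGIF2, USP15, CCN2 and the markers were named after their values were seen. The members and lists were chosen with earlier results of these data known. Same-numbered libraries deviated together (every correlation over 0.1) in 2 of 9 comparisons, R1881 against vehicle in EV cells (0.163 to 0.198) and 3A against EV with R1881 (0.105 to 0.154); what a number marks is not in the labels. Promoter windows are RefSeq's (GRCh38.p14).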

Additional observations from a re-analysis of the deposited data

How the results depend on the processing

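Over the members' log2 differences, 1239 values under the alternatives stayed on the same side of the threshold, of which 68, all uncalled, had the other sign. A call was lost in 7 and gained in 14, and 0 called values changed sign. Fits that gave a member no adjusted p are not among these values, which was so for TGFB3 and TGFBR2 in some comparisons. Members called moved as follows: for WT against EV with R1881 from 1 to 2 under DESeq2 and the replicate block, for 3A against WT with R1881 from 0 to 2 under DESeq2, 1 with the 1 CPM filter and 3 under the block, and for R1881 in WT cells from 3 to 5 under the block. Counts over all genes follow for 3A against WT under DESeq2 and the block, and for WT against EV under the block. For the other settings named no such count is given, so those member counts have no background here. Pathway genes called on vehicle (WT versus EV, 3A versus EV, 3A versus WT) were 0, 2 and 3. DESeq2 gave 1 and 5 for the first 2, no filter 3, 8 and 6, the compared groups alone 4 for the second, and the block 1, 7 and 7. With R1881 the same order had 4, 5 and 4. DESeq2 gave 7 for the first, no filter 9 for the second and 9 for the third, the compared groups alone 10 for the first and 2 for the third, and the block 11, 8 and 9. For the differences in response, 0 pathway genes became 2 (no filter) and 1 (block) for WT minus EV, and 2 (DESeq2), 4 (no filter) and 3 (block) for 3A minus WT. Over all genes, WT against EV on vehicle went from 132 to 230 (DESeq2), 325 (no filter), 64 (compared groups alone) and 270 (block). 3A against EV on vehicle went from 1244 to 2072 (block), and 3A against WT from 967 to 527 (compared groups alone) and 1732 (block). With R1881, WT against EV went from 1493 to 2366 (compared groups alone) and 2709 (block), 3A against EV from 1451 to 2409 (block), and 3A against WT from 545 to 893 (DESeq2), 869 (no filter) and 1046 (block). The differences in response went, under DESeq2, no filter, the compared groups alone and the block, from 34 to 139, 226, 21 and 133 (WT minus EV), from 2 to 7, 62, 7 and 6 (3A minus EV) and from 10 to 83, 178, 2 and 96 (3A minus WT). The cause was not tested.

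Leaving out each library in turn kept the members called at their number except for 3A against WT with R1881 (0 to 1), R1881 in WT cells (2 to 3) and R1881 in 3A cells (3 to 4). Pathway genes called ranged over 0 to 1, 2 to 3 and 2 to 5 on vehicle, 2 to 6, 3 to 5 and 1 to 3 with R1881, 19 to 24, 20 to 22 and 19 to 23 for R1881 in EV, WT and 3A cells, and 0 to 1 for 3A minus WT. All genes called ranged over 66 to 187, 751 to 1100 and 472 to 1295 on vehicle, 601 to 1754, 813 to 1427 and 298 to 441 with R1881, 3433 to 3953, 2477 to 3536 and 3290 to 4021 for R1881, and 13 to 52, 0 to 6 and 2 to 27 for the differences in response. Over all pairs of same-numbered libraries 26 of 45 correlations of deviations were over 0.1 (range -0.141 to 0.283), and 7 of 18 libraries correlated best with their own number. The replicate block added calls for SMAD3 (WT against EV with R1881, adjusted p = 0.0218; 3A against WT with R1881, 0.0152; R1881 in WT cells, 0.0416), SMAD7 (3A against WT with R1881, 0.0204), TGFB3 (3A against WT with R1881, 0.0431) and TGFBR3 (R1881 in WT cells, 0.0413), and changed no other member's call. DESeq2 called TGFB3 for 3A against WT with R1881 at an adjusted p of 0.0428 and the 1 CPM filter at 0.0408. Depth limits TGFB1 and TGFB2, which could not be tested, and TGFBR2.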
